A study of Mus musculus with 547 samples.

Results

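Secretory pathway and endoplasmic reticulum (ER) stress genes were followed as a set of 41 named mouse genes, taken by gene symbol from the 40824 genes of the deposited read count tables. They were grouped by role into 8 chaperones and folding enzymes of the ER lumen, 11 genes of the translocon and of targeting to it, 5 subunits of signal peptidase, 8 stress sensors and transcription factors, and 9 targets of the unfolded protein response with co-chaperones and degradation factors. The study sequenced mouse fetal liver cells. Bulk libraries came from pools of DLK+ cells taken daily between E10.5 and E18.5 (9 stages, 2 libraries a stage), where DLK is a surface protein of fetal hepatoblasts. Single cells were picked after sorting for DLK+ (hepatoblasts and hepatocytes) or EpCAM+ (an epithelial surface protein that later marks bile duct cells) on days from E10.5 to E17.5 (EpCAM+ from E11.5, none at E16.5), and the authors' putative label splits them into hepatoblast/hepatocyte and cholangiocyte (bile duct cell). Single cells also came from liver lobes of E12.5 embryos kept in culture for 2 days. All cultures shared a medium with fetal bovine serum, EGF and an insulin, transferrin and selenium supplement, and received DMSO carrier (Control), 0.5 µM TPPB (an agonist of protein kinase C), 10 µM U0126 (an inhibitor of the kinases MEK1/2) or both. Cultured lobes are explants and lack the circulation. The labels give no strain or sex, and no allele or transgene. The question put to the data was whether the ER apparatus grew with the output of plasma proteins.

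Proteins bound for the blood enter the ER through the Sec61 translocon while they are being translated, lose their signal peptide to signal peptidase, and fold with the help of chaperones such as Hspa5 (BiP) and of protein disulfide isomerases. When folding falls behind, the sensors Ern1 (IRE1), Eif2ak3 (PERK) and Atf6 start the unfolded protein response, which acts through Xbp1, Atf4 and the cleaved Atf6 and raises chaperones, co-chaperones and the genes of ER-associated degradation (ERAD). Hepatocytes are professional secretory cells, and Creb3l3 (CREB-H) is a membrane-bound transcription factor of the liver.

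Bulk libraries held between 14385574 and 22791119 reads, and the 529 cells between 763480 and 2111839. Embryo cells of 1 stage, gate, label and set were summed, and explant cells of 1 treatment, gate and set with both labels together, a set being the number in the sample titles, whose meaning the labels do not give. No label says that libraries or sets came from separate litters, so p-values measure only the spread between these libraries or sums, which may be technical. All 41 members passed the filter on low counts in the bulk, embryo and explant fits. The DLK+ groups carried hepatoblast genes as labelled, with Alb at 2417 to 3201 TPM (a level per gene length that sums to the same total in every library) in bulk at E10.5 and 135582 to 138396 at E18.5. Markers of other cells moved with stage in the bulk libraries, where 9 mesenchymal and stellate genes summed to 567 and 775 TPM at E10.5 and to 2.28 and 26.3 TPM at E18.5, and red cell genes to 17.8 to 475 TPM over all stages. In the picked DLK+ cells the mesenchymal genes stayed between 1.30 and 5.59 TPM at E10.5, E14.5 and E17.5, and their part in the bulk results was not tested. In bulk, fewer cells of a type and less RNA per cell cannot be told apart.

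Start regions of 34 of the 41 members were found in RefSeq (GRCm38.p6), and 4 are shown because they carry a motif of the unfolded protein response and because their genes moved in different ways. The ER stress element (ERSE) was searched as CCAAT, then 9 bases, then CCACG, ERSE-II as ATTGG, 1 base, CCACG, and the unfolded protein response element (UPRE) as TGACGTGG, each on both strands in the 300 bases that run from 250 before to 50 after each start. The windows lie at chr8:94386179-94386428 (plus strand) for Herpud1, chr14:118937682-118937931 (plus strand) for Dnajc3, chr15:88819396-88819645 (plus strand) for Creld2 and chr11:50325674-50325923 (minus strand) for Canx. Each line gives the 250 bases before the start, and the capitals mark the fixed letters of ERSE-II in Herpud1 and of ERSE in the other 3, which in Creld2 lies on the opposite strand and so reads CGTGG, 9 bases, ATTGG.
Herpud1: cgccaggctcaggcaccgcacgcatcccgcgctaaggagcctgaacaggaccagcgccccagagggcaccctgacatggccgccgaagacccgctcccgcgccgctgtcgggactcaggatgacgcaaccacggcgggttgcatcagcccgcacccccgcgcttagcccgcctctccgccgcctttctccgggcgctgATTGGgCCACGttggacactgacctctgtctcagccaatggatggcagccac
Dnajc3: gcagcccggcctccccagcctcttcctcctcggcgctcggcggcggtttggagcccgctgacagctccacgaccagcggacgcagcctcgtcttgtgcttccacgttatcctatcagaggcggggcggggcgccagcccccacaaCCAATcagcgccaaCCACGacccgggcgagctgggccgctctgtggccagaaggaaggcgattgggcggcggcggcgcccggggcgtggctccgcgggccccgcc
Creld2: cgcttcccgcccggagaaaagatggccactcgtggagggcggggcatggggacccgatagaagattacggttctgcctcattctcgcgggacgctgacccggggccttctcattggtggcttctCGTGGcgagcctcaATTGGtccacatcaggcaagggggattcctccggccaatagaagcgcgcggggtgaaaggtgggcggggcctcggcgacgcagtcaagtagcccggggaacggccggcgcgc
Canx: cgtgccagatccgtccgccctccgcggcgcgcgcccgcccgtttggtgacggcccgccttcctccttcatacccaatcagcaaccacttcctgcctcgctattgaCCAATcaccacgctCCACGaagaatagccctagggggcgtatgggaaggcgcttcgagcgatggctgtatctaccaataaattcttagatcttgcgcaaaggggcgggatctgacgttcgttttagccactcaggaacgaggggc
ERSE was present in 7 of the 34 matched members (20.6%), namely Calr, Canx, Creld2, Dnajc3, Hsp90b1, Hspa5 and Pdia6, and in 39 of 32851 RefSeq windows (0.119%). ERSE-II was present in Herpud1 and Dnajb11 (5.9% of matched members, 5.7% of their windows and 0.037% of all windows), and UPRE in none of the 34 against 0.676% of all windows. The members were picked in part as targets of this response, so a higher share of its motifs is no independent result. A match describes letters and not a binding site, and the absence of a match says nothing about the factor.

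The summed transcript level of the 41 members did not follow that of 30 plasma protein genes, and the mean ratio between them was lower at each bulk stage than at the one before. In the bulk libraries the members summed to 15750 and 14479 TPM at E10.5, and to 5914 and 6786 TPM at E18.5. The plasma protein genes summed to 51681 and 44643 TPM at E10.5 and to 353603 and 345678 TPM at E18.5, a mean 7.26 times higher. Both sets of libraries were separated by stage without overlap in either sum. The members' mean at E18.5 was 0.420 times that at E10.5, and their ratio to the plasma genes went from 0.305 and 0.324 to 0.0167 and 0.0196. TPM is a share of all transcripts, and the plasma genes held 5.17 and 4.46% of them at E10.5 and 35.4 and 34.6% at E18.5. Scaled to transcripts outside the plasma list (TPM without those genes), the members summed to 16608 and 15156 at E10.5, 15011.6 and 17199 at E16.5, 13244 and 13953 at E17.5, and 9149 and 10371 at E18.5. On that scale E10.5 and E16.5 overlapped, and the lowest levels were those of E18.5.

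**Figure D1:**
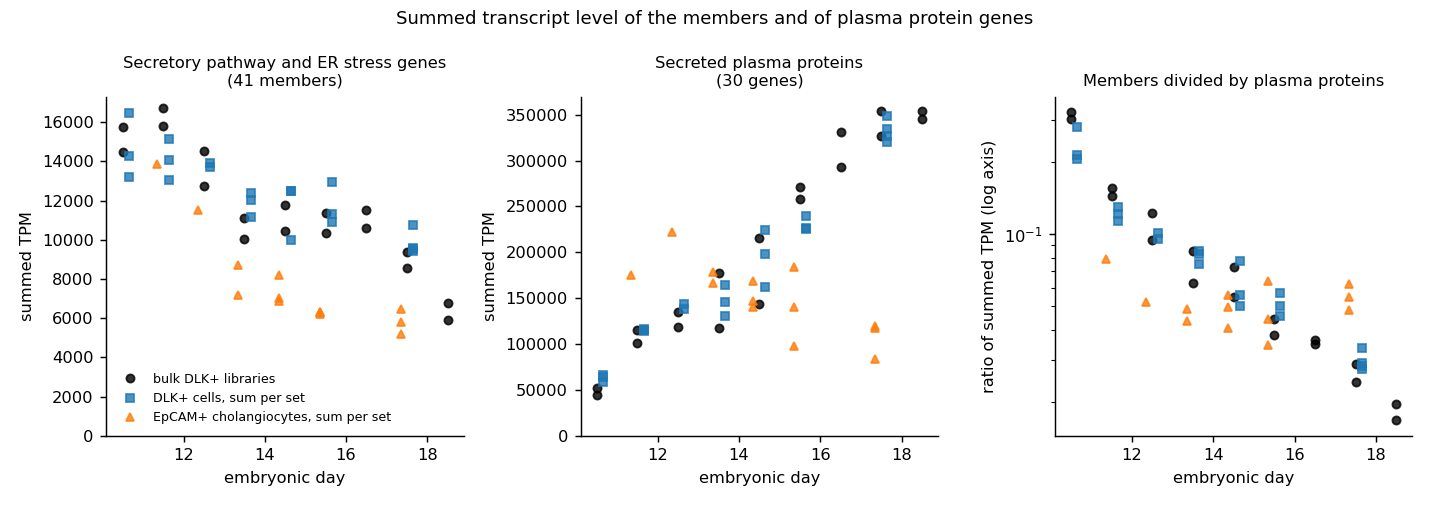
Summed TPM of the 41 members (left), summed TPM of 30 plasma protein genes (middle) and their ratio on a log axis (right) by embryonic day, with 1 point for each bulk library or sum of cells, the symbols shifted sideways by group. The bulk members run from 15750 and 14479 TPM at E10.5 to 5914 and 6786 at E18.5 while plasma transcripts reach 353603 and 345678 TPM, and from E13.5 on the cholangiocyte points lie below the DLK+ points in the left panel, but above them in the ratio at E17.5.

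In the picked DLK+ cells the members' TPM was also lower at the later stage, while their level per spike-in read was not. The members summed to 13223, 14268 and 16497 TPM at E10.5 and to 10746, 9568, 9524 and 9428 TPM at E17.5. Outside the plasma list the sums were 14128 to 17525 TPM at E10.5 and 14147 to 15801 TPM at E17.5, so that the groups overlapped. Per read of the ERCC spike-in RNA added to each cell, the members gave 0.909, 0.936 and 0.753 reads at E10.5 and 1.49, 1.49, 1.22 and 0.753 at E17.5. The plasma genes gave 1.88 to 3.17 reads per ERCC read at E10.5 and 18.9 to 39.2 at E17.5. The mean of the members per ERCC read was 1.43 times higher with overlap between the stages, and that of the plasma genes 10.97 times higher without overlap.

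Per gene length, the lumenal chaperones held the highest levels of the set at both ends of the bulk course. At E10.5, Hspa5 led with 2576 and 2152 TPM, ahead of Hsp90b1 with 1793 and 1734 TPM and Calr with 1746 and 1630.2 TPM, and P4hb stood at 955 and 885 TPM. At E18.5, P4hb led with 970.4 and 1069 TPM, ahead of Calr with 660.5 and 843 TPM, Hspa5 with 669 and 713 TPM and Hsp90b1 with 392 and 429.5 TPM. The values of Hsp90b1 and Calr overlapped at E10.5, and those of Calr and Hspa5 at E18.5.

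Changes of single members are given as log2 fold changes after TMM scaling, which centres each library on the bulk of its genes. TMM factors went from 1.54 and 1.59 at E10.5 to 0.550 and 0.618 at E18.5, so the choice of scaling bears on every direction. Scaling by library totals, chosen after seeing the data, moved the median of all genes tested from -0.02 to -1.45 between E10.5 and E18.5 in bulk, and from -0.13 to -1.27 between E10.5 and E17.5 in DLK+ cells. A change after TMM scaling is therefore a change relative to most other genes, and one after scaling by totals is a change in share of all reads. In both scalings 31 of the 41 members in bulk and 37 of 41 in DLK+ cells lay above the median of all genes. The change of scaling shifts all genes by nearly the same amount, so equal counts in both were set in advance.

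In bulk, 25 of the 41 members rose from E10.5 to E18.5 against 32.6% of the 15275 genes tested, and 4 fell against 32.5%. With library totals, which move the median gene down, the split was 4 higher and 27 lower. The shares of all genes belong to TMM scaling and do not apply to that split. The members' median log2 change was 0.54, against -0.02 over all genes tested. Calls are those with an adjusted p under 0.05 in edgeR's quasi-likelihood test with Benjamini-Hochberg adjustment over all genes. Creb3l3, Herpud1, P4hb and Ssr4 were higher under both scalings. By role, 3 of 8 lumenal chaperones rose, 7 of 11 translocon genes rose and 1 fell, 4 of 5 signal peptidase subunits rose, 7 of 8 sensors and factors rose, and 4 of 9 response targets rose while 3 fell. Over any stage, 40 of 41 members differed, against 79.8% of all genes tested, and Pdia6 missed the threshold with an edgeR adjusted p of 0.055. Without E10.5 library 2 the number of members that rose was 15.

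Among the lumenal chaperones, P4hb, a protein disulfide isomerase, stood at 733 and 641 CPM (read counts scaled by TMM library size) at E10.5 and 2708 and 2600.1 CPM at E18.5. All E18.5 values lay above all E10.5 values, and the highest level, 3497 and 3475 CPM, was at E17.5. The log2 change was 1.95 ± 0.23 (SE; edgeR adjusted p = 3.9e-06; 0.53 with library totals). Hspa5, the main Hsp70 chaperone of the ER and the classical readout of ER stress, stood at 1805 and 1423 CPM at E10.5 and 1706 and 1583 CPM at E18.5. These values overlapped, with a log2 difference of 0.03 ± 0.19 (edgeR adjusted p = 0.91) that was -1.40 with library totals. Calr, a lectin chaperone, went from 1023 and 901 to 1407 and 1566 CPM, a rise of 0.63 ± 0.16 (edgeR adjusted p = 0.0032) that turned to -0.79 with library totals. Pdia3, the isomerase that works with the lectin chaperones, went from 755 and 684 to 953 and 941 CPM and rose by 0.40, or -1.03 with library totals. Calr lost its call without E10.5 library 2 (0.41, edgeR adjusted p = 0.114), and Pdia3 lost its call without any one of the 4 libraries. The log2 differences of Canx, Hsp90b1, Pdia4 and Pdia6 lay between -0.30 and 0.23 and did not pass the test.

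The translocon genes did not move as a block. Ssr4, a subunit of the translocon-associated protein (TRAP) complex, stood at 60.3 and 56.5 CPM at E10.5 and 195 and 212 CPM at E18.5. The stages did not overlap and the rise was 1.80 ± 0.17 (edgeR adjusted p = 2.6e-07). Ssr1, another TRAP subunit, fell from 339 and 313 to 207 and 205 CPM (-0.66 ± 0.16, edgeR adjusted p = 0.0021), and Ssr3, a further one, differed by 0.17 ± 0.18 (adjusted p = 0.43) at 394 and 346 and 445 and 387 CPM, or by -1.26 with library totals. Ssr2, the remaining TRAP subunit, went from 191 and 166 to 269 and 250 CPM and was among the translocon genes that rose. The subunits of this complex thus differed in direction or call after TMM scaling. Srpr, the receptor of the signal recognition particle, went from 101 and 87.8 to 265 and 233 CPM, a rise of 1.40 ± 0.17 (edgeR adjusted p = 5.9e-06) that was -0.03 with library totals. Sec62, a partner of the Sec61 channel, went from 83.5 and 84.0 to 186 and 201 CPM, a rise of 1.21 ± 0.20 (edgeR adjusted p = 8.1e-05) that was -0.21 with library totals. The channel subunit Sec61a1 rose by 0.97 and Sec61b by 0.47, or differed by -0.46 and -0.94 with library totals, and Sec61g differed by 0.25 without passing the test.

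In signal peptidase, the enzyme that cuts off signal peptides, Spcs1 went from 68.3 and 59.0 to 153 and 151 CPM, a rise of 1.25 ± 0.17 (edgeR adjusted p = 1.4e-05) that was -0.17 with library totals. The catalytic subunit Sec11c went from 7.90 and 6.87 to 15.1 and 19.8 CPM, a rise of 1.24 ± 0.24 (edgeR adjusted p = 3.3e-04) that was -0.18 with library totals. Sec11a, the other catalytic subunit, went from 59.9 and 57.4 to 78.2 and 83.6 CPM and rose by 0.46 ± 0.12 (-0.96 with library totals), but did not pass the test without E10.5 library 1 (0.37, edgeR adjusted p = 0.0844) or library 2 (0.31, adjusted p = 0.148). Spcs3 stood at 124 and 107 and at 112 and 109.9 CPM, with overlapping values and a log2 difference of -0.06 ± 0.16.

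Sensors and factors held the largest rise of the set. Creb3l3 stood at 29.1 and 23.2 CPM at E10.5, 148 and 159 CPM at E13.5 and 328 and 347 CPM at E18.5. The stages E10.5 and E18.5 were far apart, with a log2 change of 3.69 ± 0.21 (edgeR adjusted p = 1.5e-09; 2.27 with library totals), or 12.9-fold. Xbp1, the factor that IRE1 activates by splicing, went from 105 and 92.5 CPM to 421 and 387 CPM at E17.5 and 267 and 287 CPM at E18.5. Its rise to E18.5 was 1.49 ± 0.14 (edgeR adjusted p = 2.5e-07; 0.07 with library totals), and gene counts do not tell its spliced from its unspliced form. Ern1, which encodes IRE1, went from 23.1 and 22.9 to 58.4 and 70.2 CPM and rose by 1.48 ± 0.17 (edgeR adjusted p = 2.2e-06; 0.07 with library totals). Eif2ak3 rose by 1.44, Creb3l2 by 0.83 and Atf6 by 0.54, of which Creb3l2 and Atf6 turned to -0.60 and -0.87 with library totals. The stress factors Atf4 and Ddit3 (CHOP) were less certain. Atf4 stood at 136 and 99.6 CPM at E10.5 and 128 and 149.6 CPM at E18.5, a difference of 0.23 ± 0.20 (edgeR adjusted p = 0.32) or -1.18 with library totals. Ddit3 stood at 6.28 and 3.56 and 9.15 and 12.8 CPM and rose by 1.15 ± 0.46 (edgeR adjusted p = 0.037) or differed by -0.25 with library totals, but lost its call without E10.5 library 2 (0.67, adjusted p = 0.305) or E18.5 library 2 (0.89, adjusted p = 0.191). Its reads could include some of Mars, a gene that overlaps it on the other strand, since whether counting used the strand is not given in the sources used here.

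The response targets split into members that rose strongly and members that fell. Herpud1, a membrane protein of ERAD whose start region is printed above, stood at 57.5 and 33.3 CPM at E10.5, 117 and 139 CPM at E14.5 and 414 and 473 CPM at E18.5. Its rise was 3.29 ± 0.28 (edgeR adjusted p = 8.8e-08; 1.87 with library totals), or 9.75-fold, with no overlap. Dnajb9 (ERdj4), a co-chaperone of Hspa5, went from 22.7 and 16.9 to 86.3 and 71.1 CPM and rose by 1.99 ± 0.28 (edgeR adjusted p = 1.7e-05; 0.56 with library totals). Dnajc3 (p58IPK), a co-chaperone that also restrains PERK, went from 141 and 131 to 438 and 459.8 CPM and rose by 1.72 ± 0.20 (edgeR adjusted p = 3.5e-06; 0.30 with library totals). In the opposite direction, Sdf2l1, a partner of ERdj co-chaperones, fell from 38.1 and 40.3 to 12.3 and 16.6 CPM (-1.44 ± 0.21, edgeR adjusted p = 3.3e-05; -2.86 with library totals). Hyou1, a large Hsp70-like chaperone of the ER, fell by 1.21 on the log2 scale, and Creld2 fell by 0.83. Dnajb11, another Hspa5 co-chaperone, was at 97.4 and 91.5 and 86.1 and 86.7 CPM and did not pass the test (-0.13 ± 0.14). Of the members with ERSE, Dnajc3 and Calr rose, Creld2 fell, and Canx, Hsp90b1, Hspa5 and Pdia6 did not pass the test.

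**Figure D2:**
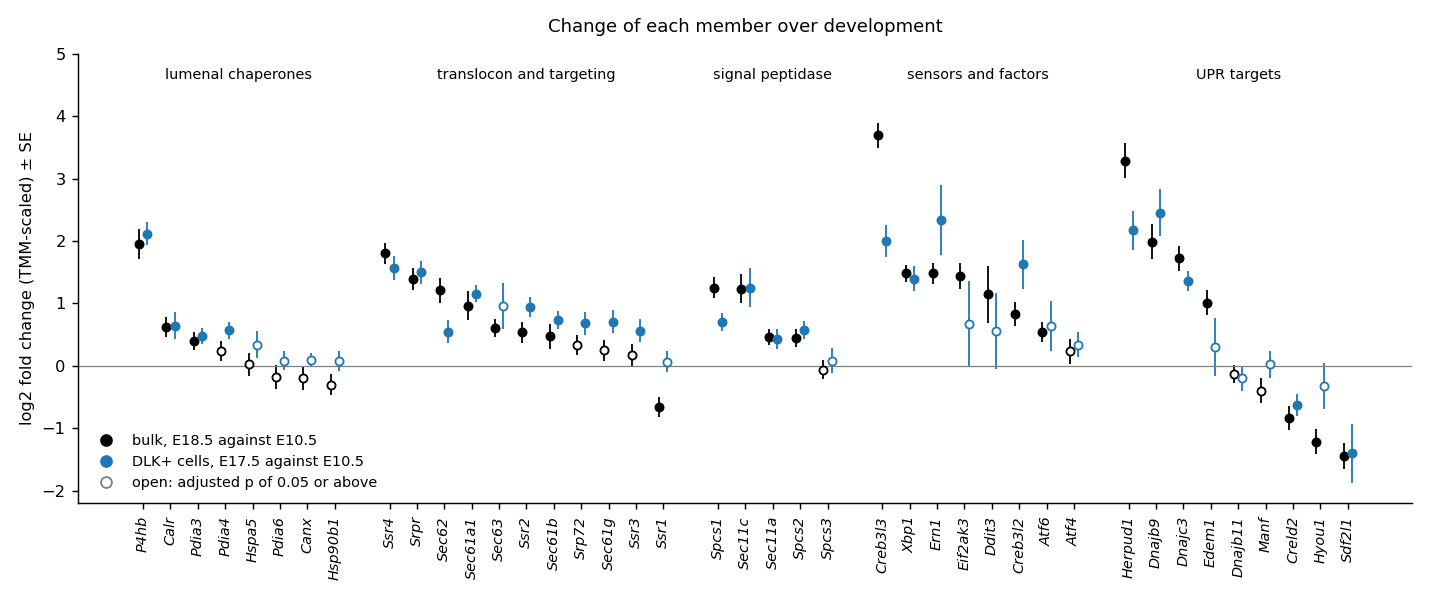
Log2 fold change after TMM scaling with its standard error for each of the 41 members, ordered by role, in bulk (E18.5 against E10.5, black) and in picked DLK+ cells (E17.5 against E10.5, blue), filled where the edgeR adjusted p is under 0.05. Creb3l3 (3.69 in bulk) and Herpud1 (3.29) lead and Sdf2l1 (-1.44) is lowest, while with library totals the median gene lies at -1.45 and 16 of the 25 members that rose have estimates below 0.

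Neighbouring bulk stages were compared in 8 steps. From E10.5 to E11.5, 8 members rose against 9.55% of all genes, among them Creb3l3 (1.63), Herpud1 (0.94), Xbp1 (0.82) and P4hb (0.75). Alb rose in the same step by 3.08. No member passed edgeR's test from E11.5 to E12.5 (0.471% of all genes in either direction), from E14.5 to E15.5 (0.216%) or from E15.5 to E16.5 (0%). At an unadjusted p under 0.05 these steps had 9, 5 and 1 members, and DESeq2 called 1, 2 and 0. From E12.5 to E13.5, 11 members fell against 9.43% of all genes. The next step, to E14.5, had 13 members that rose, against 15.4% of all genes. In the first of these 2 steps Sec61b rose, and in the second 4 members fell. With an adjustment for GC content, 2 members fell and 0 rose in the first, and 1 fell and 0 rose in the second. From E16.5 to E17.5, Ern1, Xbp1, Creb3l3 and Srpr rose by 0.55 to 0.69 against 5.89% of all genes. In the last step, from E17.5 to E18.5, 11 members fell against 4.44% of all genes, with Manf at -1.06, Creld2 at -0.97, Hyou1 at -0.91 and Xbp1 at -0.55. No member rose in that last step in edgeR's test, while 3 had a higher estimate at an unadjusted p under 0.05 and DESeq2 called 0.

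**Figure D3:**
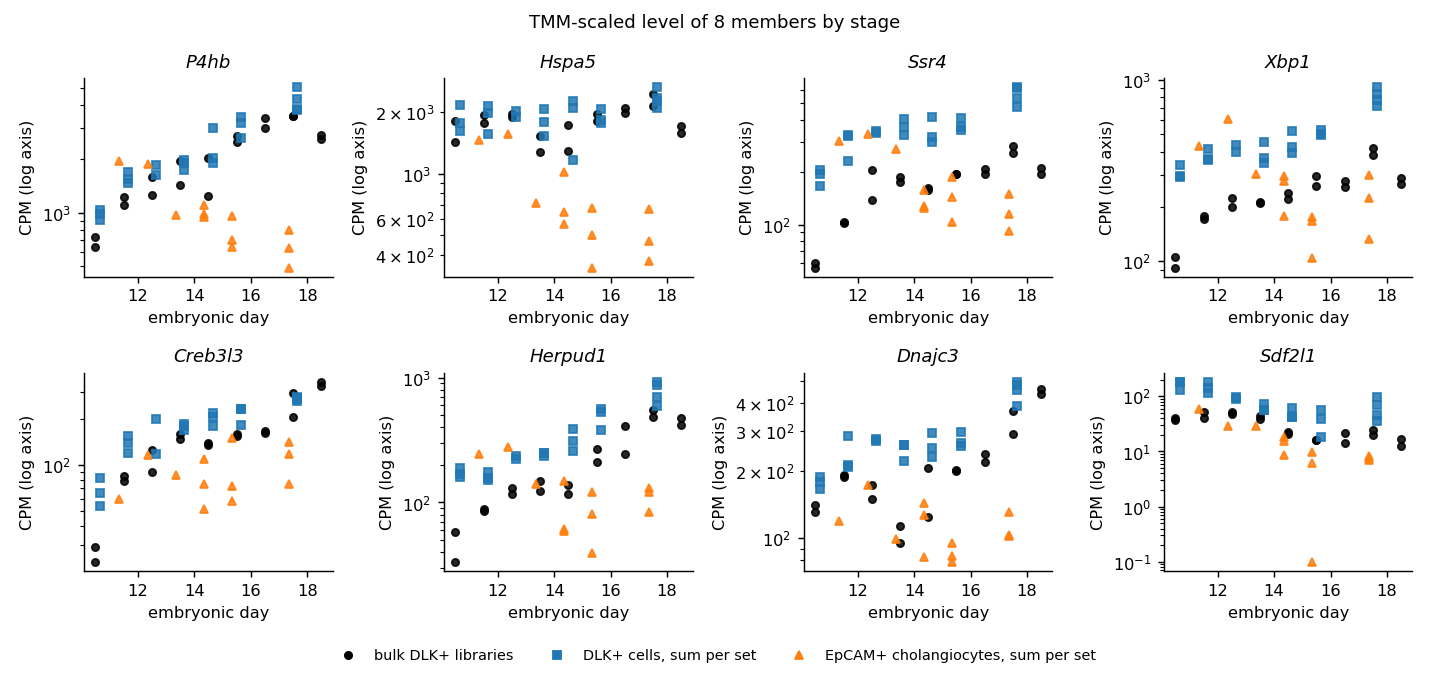
TMM-scaled CPM on log axes for 8 members by embryonic day, with 1 point for each bulk library (black), sum of DLK+ cells (blue) or sum of EpCAM+ cholangiocytes (orange), the bulk and cell tables having been scaled separately. Creb3l3 climbs in bulk from 29.1 and 23.2 CPM to 328 and 347 while Hspa5 lies between 1268 and 2438 CPM (a change of -1.40 with library totals in place of TMM), and at E17.5 the cholangiocyte points lie below the DLK+ points.

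The picked DLK+ cells, which share no library with the bulk samples, were tested in the same way. From E10.5 (3 sums) to E17.5 (4 sums), 24 members rose against 14.2% of the 16838 genes tested, and 2 fell against 15.2%. With library totals the split was 5 higher and 23 lower, and with library sizes set by the ERCC reads it was 10 higher and 0 lower. The shares of all genes belong to TMM scaling and do not apply to these splits. The 5 that were also higher with totals were Dnajb9, Herpud1, P4hb, Creb3l3 and Ssr4. The median member changed by 0.63 and the median gene by -0.13. Of the members that rose, 20 were shared with bulk, which is 80% of the bulk list and 83.3% of the cell list, and Creld2 and Sdf2l1 fell in both. The matching overlap over all genes is not given, so these shares have no background to be read against. Atf6, Ddit3, Edem1, Eif2ak3 and Sec63 rose in bulk without passing in cells, and Pdia4, Sec61g, Srp72 and Ssr3 passed in cells without passing in bulk, though the difference between the fits was not tested. The bulk list ends at E18.5 and the cell list at E17.5. Bulk means of Pdia4, Sec61g, Srp72 and Ssr3 were 364, 56.4, 133 and 370 CPM at E10.5. They were 573, 125, 186 and 564 CPM at E17.5 and 427, 67.2, 167 and 416 CPM at E18.5. The change from E10.5 to E17.5 was not tested in bulk.

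P4hb stood at 911, 987 and 1031 CPM in the E10.5 sums and at 3746, 3817, 4348 and 5036 CPM in the E17.5 sums. The stages were separate, with a rise of 2.12 ± 0.18 (edgeR adjusted p = 6.6e-11; 0.96 with library totals and 1.85 with ERCC). Hspa5 was at 1613, 1756 and 2154 CPM and at 2632, 2348, 2272 and 2078 CPM. The 2 stages overlapped, and the difference of 0.34 ± 0.21 (edgeR adjusted p = 0.24) became -0.82 with library totals. Calr went from 957, 1057 and 1099.6 to 1929.8, 1752, 1250.0 and 1546 CPM and rose by 0.64 ± 0.21 (-0.51 with library totals), a call that 5 of the 7 sums could each remove when left out, with adjusted p of 0.115 without E17.5 set 1. Pdia4, a further disulfide isomerase, went from 507, 593 and 603 to 894, 955, 722 and 805 CPM and rose by 0.57 ± 0.13, or -0.58 with library totals. Hsp90b1, the Hsp90 of the ER, differed by 0.08 ± 0.15 (adjusted p = 0.76), or by -1.08 with library totals.

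Among translocon genes in the cells, Ssr4 went from 195, 207 and 167 to 617, 618, 535 and 478 CPM (1.57 ± 0.19, edgeR adjusted p = 1.2e-07) and Srpr from 112, 129 and 91.2 to 285, 321, 311 and 336 CPM (1.5 ± 0.18, adjusted p = 1.0e-07). Sec61a1, the pore of the translocon, went from 475, 510.5 and 483 to 1260.4, 1047, 927 and 1139 CPM (1.16 ± 0.14, edgeR adjusted p = 9.3e-08). All 3 were separate between stages. Ssr1 was at 422, 454 and 484 and 575, 508, 419 and 401 CPM with overlap (0.07 ± 0.16; -1.09 with library totals). In signal peptidase, Sec11c went from 24.6, 26.8 and 15.48 to 66.9, 44.9, 46.1 and 54.6 CPM (1.25 ± 0.31, edgeR adjusted p = 0.0022), and Spcs1 from 241, 273 and 238 to 437, 408, 430.3 and 362 CPM (0.71 ± 0.14, adjusted p = 2.0e-04; -0.44 with library totals). Spcs2 rose by 0.58 (-0.58 with library totals), while Spcs3 overlapped at 184, 177 and 213 and 179, 255, 220.0 and 155 CPM (0.08 ± 0.20; -1.08 with library totals).

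Among sensors and factors, Ern1 went from 2.83, 3.20 and 4.15 to 6.78, 23.6, 11.9 and 26.5 CPM (2.33 ± 0.56, edgeR adjusted p = 0.0016) and Creb3l3 from 65.6, 82.2 and 54.2 to 269, 271, 261 and 276 CPM (2.00 ± 0.26, adjusted p = 3.3e-07). Creb3l2, a relative of Creb3l3, went from 11.51, 17.8 and 11.6 to 52.3, 28.7, 45.9 and 41.7 CPM (1.63 ± 0.39, edgeR adjusted p = 0.0016). Xbp1 went from 296, 341 and 289.6 to 839, 907, 721 and 778 CPM (1.39 ± 0.20, edgeR adjusted p = 1.8e-06). None of these 4 overlapped between the stages. Atf4 did overlap, at 141, 150.3 and 115 and 148, 155, 225 and 158 CPM (0.34 ± 0.20, edgeR adjusted p = 0.21; -0.81 with library totals). Ddit3 was low at 6.91, 6.24 and 9.07 and 6.58, 10.2, 14.9 and 12.1 CPM, overlapped and did not pass the test (0.56 ± 0.61, adjusted p = 0.53; -0.60 with library totals).

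Among response targets in the cells, Dnajb9 went from 33.3, 50.9 and 50.5 to 247, 266, 242 and 226 CPM (2.45 ± 0.38, edgeR adjusted p = 4.7e-06) and Herpud1 from 160.0, 188 and 168 to 925, 879, 706 and 589 CPM (2.17 ± 0.31, adjusted p = 1.5e-06), neither with overlap. Sdf2l1 went from 132, 183 and 181 to 96.2, 36.4, 70.7 and 46.8 CPM and fell by 1.40 on the log2 scale (edgeR adjusted p = 0.024), but missed the threshold without E10.5 set 2 (-1.32, adjusted p = 0.0681), E10.5 set 3 (-1.33, adjusted p = 0.0683) or E17.5 set 2 (-1.29, adjusted p = 0.0585). Manf, a secreted and ER-held survival factor, stood at 259, 322 and 338 and 360.3, 336, 298 and 255 CPM with a difference of 0.03 ± 0.22, or -1.13 with library totals. By step, P4hb and Creb3l3 rose from E10.5 to E11.5 (2.11% of all genes), no member passed edgeR's test from E11.5 to E13.5 (0.445% in either direction; 5 members at an unadjusted p under 0.05, and 2 called by DESeq2), P4hb rose from E13.5 to E15.5 (0.665%), and Xbp1, Sec61a1, Srpr and Dnajc3 rose from E15.5 to E17.5 (2.57%). Over these steps together 0 members were called higher with ERCC library sizes, and 1 higher and 11 lower with library totals. The step to E18.5, in which 11 members fell in bulk, has no counterpart in the picked cells.

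Other genes of the pathway were counted from lists that exclude the 41 members, to be read against the shares of all genes tested (32.6% higher and 32.5% lower in bulk, 14.2% and 15.2% in cells). Of 24 genes of vesicle traffic between ER and Golgi, 19 rose and 1 fell in bulk, with Mcfd2 (2.80 ± 0.20), the partner of the cargo receptor Lman1, and the coat gene Sec24d (2.31 ± 0.32) among them, and 18 rose in DLK+ cells. Of 12 other folding enzymes, 10 rose in bulk and 9 in cells, led by Qsox1 (5.21 ± 0.31 in bulk and 4.64 ± 0.42 in cells) and Ero1lb (3.30 ± 0.24 and 3.58 ± 0.87), both sulfhydryl oxidases. Of 12 other ERAD genes, 9 rose and 2 fell in bulk and 6 rose and 1 fell in cells, with Edem2 (2.65 ± 0.19 and 2.96 ± 0.27) and Os9 (2.47 ± 0.20 and 2.12 ± 0.20) leading. Of 14 N-glycosylation genes, 7 rose in bulk and 6 in cells, and of 8 other targeting genes, 3 rose and 2 fell in bulk and 2 rose in cells. Of the targets of Atf4 and Ddit3, 5 of 14 rose and 3 fell in bulk, and 3 of 15 rose and 2 fell in cells. Nupr1 rose by 7.58 ± 0.74 and Trib3 by 3.11 ± 0.40 in bulk, and Chac1 was lower (-6.06 ± 2.04). Of 7 other regulators, 2 rose and 3 fell in bulk, with Creb3l1 at -3.11, and 2 rose and 1 fell in cells. All 30 plasma protein genes rose in both, with medians of 5.75 in bulk and 4.66 in cells, and among them Alb rose by 7.41 ± 0.50 and 6.90 ± 0.46 and Afp by 2.40 ± 0.34 and 2.22 ± 0.22. Genes of heat shock and of the immediate early response, which dissociation can raise, had 5 of 14 higher and 2 lower in bulk, where 32.6% and 32.5% of all genes were called. The largest of these changes were rises of Zfp36 (4.85 ± 0.70), Dusp1 (3.68 ± 1.17) and Junb (3.52 ± 1.09). The part of this list in the member changes was not tested.

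In the bile duct lineage the members stood lower. EpCAM+ cells labelled cholangiocyte were compared with DLK+ cells of the same day at E14.5, E15.5 and E17.5 (3 sums each, 4 for DLK+ at E17.5). Averaged over the 3 days, 33 members were lower and 0 higher, against 16% of the genes tested that were lower, and the median member differed by -1.28 against 0.16 for the median gene. No member was higher at an unadjusted p under 0.05 or in DESeq2. With library totals 29 members were lower and Sec11a and Sec62 were called higher, and with ERCC library sizes 33 were lower. The 16% belongs to TMM scaling and does not apply to these counts. The lower members included all 8 lumenal chaperones, 9 of 11 translocon genes, 4 of 5 signal peptidase subunits, all 9 response targets, and Xbp1, Creb3l3 and Atf4 among the 8 sensors and factors. The groups differ in gate as well as in label. Within the EpCAM+ gate at E14.5, the 3 sums labelled hepatoblast/hepatocyte held 13308, 12529 and 12314 TPM of members and the 3 labelled cholangiocyte 7031, 8222 and 6881 TPM, without overlap, while DLK+ sums of that day held 12488, 9979 and 12505 TPM. That difference within the gate was not tested. Cholangiocyte markers summed to 1002 to 2691 TPM in the E14.5 cholangiocyte sums and 9008 to 13727 TPM at E17.5, against 12.9 to 32.6 TPM in DLK+ cells at E17.5.

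Hspa5 showed the contrast at E17.5 with 468, 372 and 671 CPM in cholangiocytes and 2632, 2348, 2272 and 2078 CPM in DLK+ cells, and over the 3 days it was lower by -1.80 ± 0.13 (edgeR adjusted p = 1.4e-12). P4hb was at 629.5, 492 and 798 CPM in cholangiocytes of E17.5, below every DLK+ sum of that day, with a difference of -1.98 ± 0.11 over the 3 days. Calr differed by -1.82 ± 0.13. In the translocon, Ssr4 differed by -1.65 ± 0.12, Sec61b by -1.54 ± 0.09 and Ssr2 by -1.42 ± 0.10. In signal peptidase, Sec11c differed by -1.61 ± 0.19, Spcs3 by -1.46 ± 0.12 and Spcs2 by -1.15 ± 0.09. Among response targets, Sdf2l1 differed by -2.52 ± 0.31, Herpud1 by -2.41 ± 0.19 and Manf by -1.92 ± 0.14. Herpud1 stood at 121, 83.1 and 130.3 CPM in E17.5 cholangiocytes against 925, 879, 706 and 589 CPM in DLK+ cells, without overlap. Among factors, Xbp1 differed by -1.50 ± 0.12, Creb3l3 by -1.28 ± 0.15 and Atf4 by -1.23 ± 0.12. Ddit3 did not pass the test (-0.60 ± 0.37, edgeR adjusted p = 0.23), except without E14.5 cholangiocyte set 2 (-0.94, adjusted p = 0.0462). The sensors Ern1, Atf6 and Eif2ak3, and Sec62, Sec63, Sec11a and Creb3l2, had differences of -0.34 to 0.37 and did not pass, and all 7 had estimates above 0 with library totals.

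**Figure D4:**
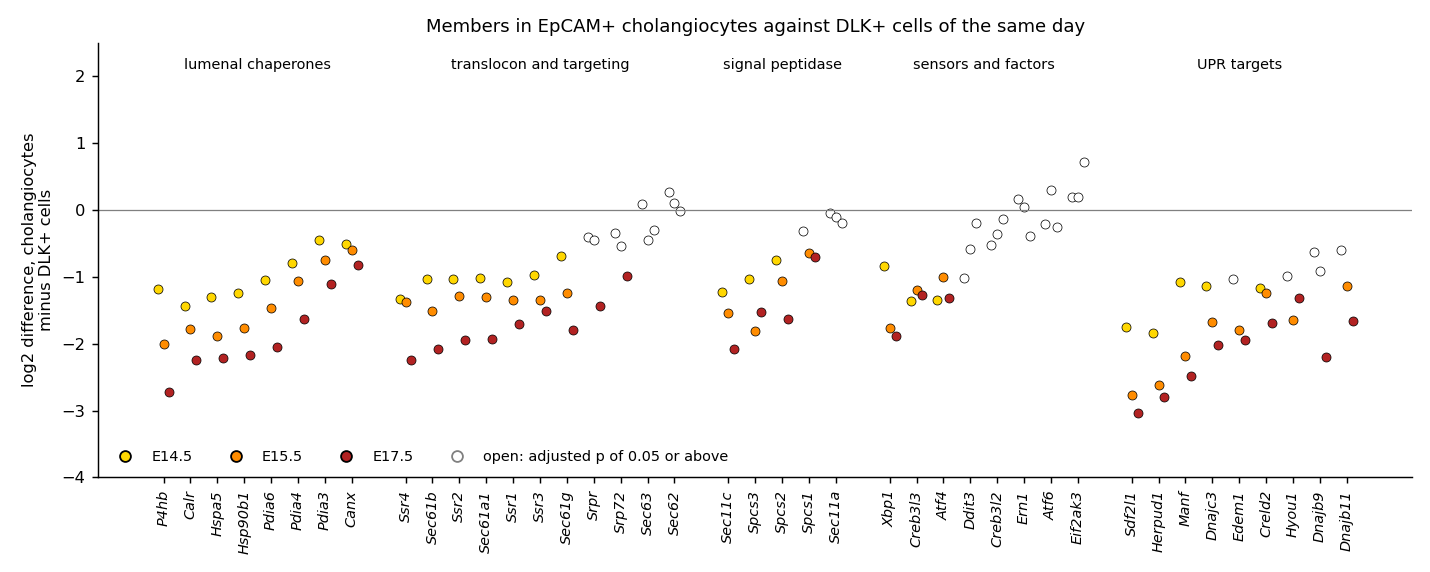
Log2 difference after TMM scaling between EpCAM+ cholangiocytes and DLK+ cells of the same day for the 41 members, ordered by role, at E14.5 (yellow), E15.5 (orange) and E17.5 (red), filled where the edgeR adjusted p is under 0.05. Filled points are all below 0 and number 26, 30 and 33 on the 3 days, and over the 3 days Ern1, Atf6, Eif2ak3, Sec11a and Sec62 average -0.11 to 0.37, or 0.44 to 0.89 with library totals.

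The other pathway lists were also mostly lower in cholangiocytes, with 21 of 24 vesicle traffic genes lower, among them the cargo receptor Lman1 (-1.80 ± 0.11). Lower too were 10 of 12 other folding enzymes with Fkbp11 at -2.45 ± 0.13, 11 of 14 N-glycosylation genes with Ostc at -2.05 ± 0.09, 8 of 12 other ERAD genes and 7 of 8 other targeting genes. Among these lists 1 N-glycosylation gene was higher. Of the plasma genes 24 were lower and 3 higher, with Alb at -1.33 ± 0.21 and Afp at -1.70 ± 0.13, and of the targets of Atf4 and Ddit3 8 were lower, with Asns at -3.25 ± 0.22, and 2 higher.

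By day, 26 members were lower at E14.5 (6.74% of all genes), 30 at E15.5 (7.73%) and 33 at E17.5 (11.2%). The contrasts share their DLK+ sums with the time course of DLK+ cells. Between E14.5 and E17.5 6 members fell within the cholangiocytes, namely Hsp90b1, P4hb (-0.66), Pdia6 (-0.87), Sec61b, Ssr1 and Ssr2, against 2.13% of all genes that were lower. With ERCC library sizes 0 members were called lower there, and 3 with sums of at least 5 cells. No member was higher there in edgeR or DESeq2, and 2 had higher estimates at an unadjusted p under 0.05. The change from E14.5 to E17.5 differed between the lineages in 15 members, all in the direction of a lower change in cholangiocytes, against 2.11% of all genes. With ERCC library sizes 0 of these interactions passed, and with library totals 1 did. In summed TPM the members of cholangiocytes went from 7031, 8222 and 6881 at E14.5 to 5803, 5195 and 6468 at E17.5. Plasma transcripts in those E17.5 sums were 119769, 84002 and 117689 TPM, so the members' ratio to them (0.0484, 0.0618 and 0.0550) lay above that of E17.5 DLK+ cells (0.0274 to 0.0336).

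Within groups of cells, members and plasma transcripts are set side by side only as a description. Spearman's rho between the members' summed TPM, recomputed without the plasma genes, and the plasma sum was 0.74 over 17 cholangiocytes at E14.5, 0.62 over 36 at E15.5 and 0.67 over 34 at E17.5. Over 10 cholangiocytes at E13.5 it was 0.52. Over DLK+ cells it was 0.26 at E10.5 (54 cells), 0.15 at E11.5 (36), -0.10 at E12.5 (21), 0.40 at E13.5 (39), 0.18 at E14.5 (27), -0.15 at E15.5 (39) and -0.26 at E17.5 (35). Over EpCAM+ cells labelled hepatoblast/hepatocyte it was 0.67 at E11.5 (32 cells), 0.34 at E12.5 (17), 0.32 at E13.5 (16) and 0.02 at E14.5 (26), so that values as high as those of the cholangiocytes were not limited to that label. In EpCAM+ explant cells, most of them labelled cholangiocyte, rho was -0.19 over 24 Control, -0.08 over 22 TPPB and 0.31 over 15 U0126 cells. Both sums of a cell come from 1 library and 1 read total. The median cell had reads for 38 to 41 of the 41 members in the embryo groups.

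In the explants, EpCAM+ cells with TPPB held few plasma transcripts, while the members' summed level overlapped with Control. The 30 plasma genes summed to 242027, 112196, 139545 and 254192 TPM in the 4 Control sums and to 4054 and 2089 TPM in the 2 TPPB sums. The members summed to 10739.6, 25338, 21350.3 and 10915 TPM in Control and to 12838 and 11166 TPM with TPPB, so the groups overlapped. The ratio of members to plasma genes was 0.0429 to 0.226 in Control and 3.17 and 5.35 with TPPB. Cholangiocyte markers summed to 182 to 6315 TPM in Control and to 15929 and 20312 TPM with TPPB, and red cell genes to 24.2 to 68.7 and to 4.13 and 1948 TPM. Their part in the member values was not tested.

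With TPPB, 3 members were lower than in Control, against 1.89% of the 13749 genes tested, and 0 were higher in edgeR's test. The median member differed by -1.19 and the median gene by 0.13. The Control sums pooled 22 cells labelled cholangiocyte with 2 labelled hepatoblast/hepatocyte, while all 22 TPPB cells carried the cholangiocyte label. Over cholangiocytes alone 2 members were lower, Creb3l3 (-7.46, edgeR adjusted p = 0.000243) and Xbp1 (-1.58, adjusted p = 0.0394), while P4hb (-1.74, adjusted p = 0.0763) and Spcs1 (-1.41, adjusted p = 0.0799) did not pass. That fit also lacked Control set 4, which held fewer than 2 cells of that label. The loss of that set and the removal of the other label cannot be told apart there. Over both labels, 22 members were lower and 0 higher at an unadjusted p under 0.05, and DESeq2 called 10 lower and 0 higher. Creb3l3 stood at 382, 443, 224 and 293 CPM in the 4 Control sums and at 1.63 and 3.25 CPM in the 2 TPPB sums. It fell by 7.39 on the log2 scale with an SE of 0.56 (edgeR adjusted p = 4.0e-04), and remained lower with ERCC sizes (-7.66) and library totals (-6.72). P4hb was at 2124, 2368, 1602 and 2203 CPM in Control and 736 and 553 CPM with TPPB, and Spcs1 at 605, 485, 384 and 417 and 198 and 188 CPM. Neither pair of groups overlapped, with differences of -1.80 ± 0.38 and -1.50 ± 0.32 and an edgeR adjusted p of 0.046 for both. Both lost the call without Control set 1, Control set 2 or either TPPB set, with adjusted p of 0.0871 to 0.315, and with ERCC library sizes. Xbp1 was at 714, 740.3, 947 and 584 CPM in Control and 236 and 270.3 CPM with TPPB (-1.52 ± 0.34, adjusted p = 0.060), and Ssr4 at 354, 441, 366 and 253 and 138 and 148 CPM (-1.48 ± 0.33, adjusted p = 0.057). These groups were also separate, and both genes passed without Control set 3 (adjusted p of 0.0309 and 0.0386) or Control set 4 (0.032 and 0.0404). Atf4, at 156, 280.2, 433 and 122 and 289 and 264 CPM, and Ddit3, at 99.2, 125, 379 and 2.89 and 22.5 and 100.3 CPM, overlapped between the groups. Ssr2 (-1.28 ± 0.37, edgeR adjusted p = 0.15), Dnajb9 (-2.13 ± 0.62, adjusted p = 0.16), Herpud1 (-1.66 ± 0.58, adjusted p = 0.25) and Hspa5 (-2.32 ± 0.85, adjusted p = 0.27) did not pass the test. Of other pathway genes, Fkbp11 (-3.48 ± 0.39), Pdia5 (-2.43 ± 0.39) and Sec16b (-9.72 ± 2.06) were lower with TPPB, as were 25 of 30 plasma genes, with Alb at -8.73 ± 1.29 and Afp at -6.64 ± 1.19.

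U0126 against Control, TPPB with U0126 against U0126, and TPPB with U0126 against Control called no member in edgeR or DESeq2, and edgeR called 0%, 0% and 0% of all genes. At an unadjusted p under 0.05, 1 member was lower in the last of these and 0 in the others, with none higher. With both agents, Creb3l3 was at 570.4 and 309 CPM, P4hb at 1534 and 2346 CPM and Xbp1 at 1097 and 1204 CPM. Each lay above both TPPB sums, and that difference was not tested. TPPB alone is present in sets 1 and 2, and U0126, alone or with TPPB, in sets 3 and 4, so agent and set cannot be told apart in those values. Control is present in all 4 sets, and over sets 1 and 2 alone 1 member was lower with TPPB, Creb3l3 (edgeR adjusted p = 0.0182). The 4 contrasts share Control or U0126 sums. In DLK+ explant cells the members summed to 14688 and 21086 TPM in Control and 13930 TPM in the single TPPB sum, whose plasma genes were at 307948 TPM, and there is no test with 1 TPPB sum. The Control values came from 1 cell in set 1 and 5 cells in set 2. A cell of set 2 held 48406 TPM of members, and the others of that set 11175 to 16641 TPM.

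The high Hspa5 sums of the Control explants held a few cells with very high levels. The Control sums were 1962, 11048, 7202 and 1904 CPM, and sets 2 and 3 were high. Among the 24 Control EpCAM+ cells, 5 exceeded 5000 TPM of Hspa5, a level chosen after the cells were seen, and the others stood at 175 to 1943 TPM. The 5 cells held 7010.4, 15213, 18698, 27776 and 35366 TPM, 3 in set 2 and 2 in set 3, and all carried the cholangiocyte label. The highest values of the pro-apoptotic factor Ddit3, 2317 and 3527 TPM, and of Herpud1, 2431 and 2644 TPM, were in the 2 of set 3. The 3 of set 2 held 41.4, 308 and 947 TPM of Ddit3 and 747, 462 and 413 TPM of Herpud1. A Control cell with 571 TPM of Hspa5 held 1343 TPM of Ddit3, more than those 3. In the 5 cells the members, Hspa5 among them, summed to 42152 to 85483 TPM. The median over all Control EpCAM+ cells, these 5 included, was 10108 TPM. The cells were picked by Hspa5, so a high sum was in part set in advance. With TPPB, 0 of 22 EpCAM+ cells exceeded 5000 TPM of Hspa5, with U0126 1 of 15 and with both agents 0 of 9. Of the 6 Control DLK+ cells 1 did, at 8240.1 TPM. Of 447 embryo cells, 1 exceeded it, at 5113 TPM. These counts depend on the level chosen. TPPB cells at 2121, 2138, 2216, 2247 and 3380 TPM lay above 1943 TPM, the highest Control EpCAM+ cell under that level. Cells under it reached 4550 TPM with U0126 and 2883 TPM with both agents. The median EpCAM+ cell held 924 TPM of Hspa5 in Control and 1071 TPM with TPPB. A share over cells was not tested, since the cells come from 2 to 4 sets a group.

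**Figure D5:**
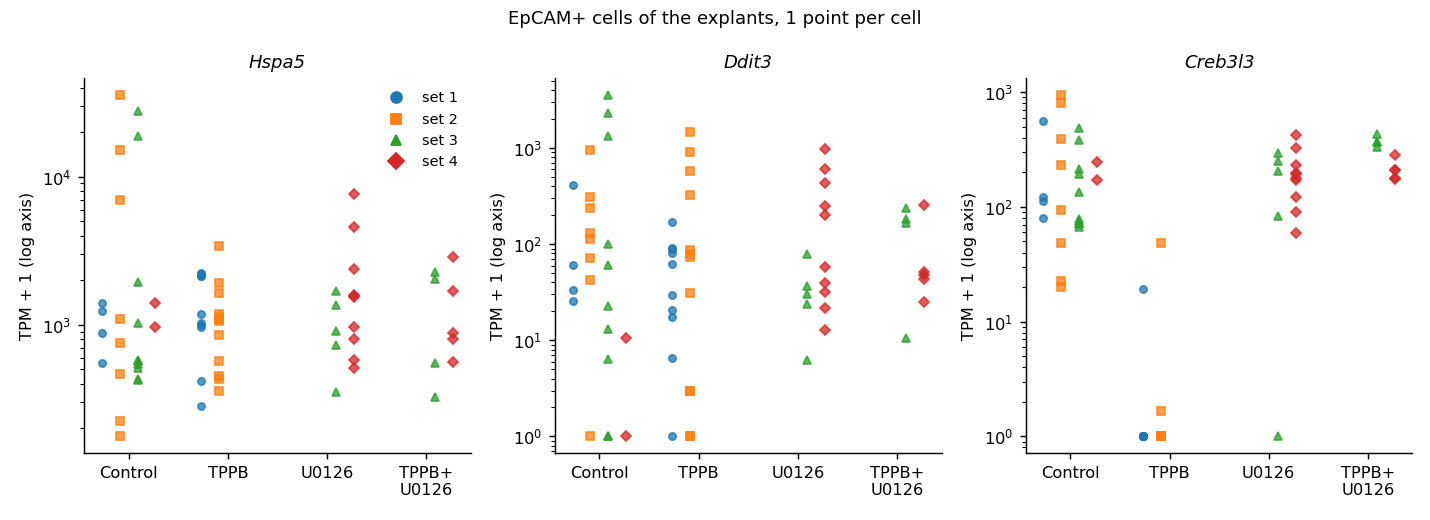
TPM plus 1 on a log axis of Hspa5, Ddit3 and Creb3l3 in single EpCAM+ cells of the explants, with 1 point for each cell placed by treatment and set. The Control cells of sets 2 and 3 reach 35366 and 27776 TPM of Hspa5, and no TPPB cell exceeds 47.4 TPM of Creb3l3.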

How the data were processed

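Poly(A) RNA of sorted DLK+ pools and Smart-seq2 libraries of single cells were sequenced, and the authors deposited whole-number read counts per gene with a gene length. The submitters' processing notes name TopHat2 2.1.0, Bowtie2, HTSeq 0.6.0 and the build GRCm38/mm10, and whether counting used the strand is not given in the sources used here. The members and lists were chosen with earlier results of these data known. Counts of embryo cells of 1 stage, gate, label and set were summed, and 42 such sums of at least 2 cells were tested. Explant cells were summed by treatment, gate and set, both labels together, and the fit had terms for treatment and for sets 1 and 2 against sets 3 and 4. TPM was computed from the deposited counts and lengths. Genes passing filterByExpr (minimum count 10) were fitted with TMM scaling and edgeR 4.0.16 (glmQLFit, R 4.3.3), 1 fit each for bulk, embryo and explant EpCAM+ sums, with Benjamini-Hochberg adjustment at 0.05. Alternatives were DESeq2 1.42.0, ERCC library sizes, GC offsets, no filter, a replicate block, at least 5 cells a sum, cholangiocytes only, sets 1 and 2 only and each library left out, where embryo fits reused the main dispersion trend. Library totals were added after seeing the data. Named in each role were up to 3 called members with the largest change and a mean of at least 10 CPM, the member with the smallest change, for the lineage and explants up to 3 called members or the 2 with the smallest p, of other lists up to 3 called genes, and always Alb, Afp, Hspa5, Xbp1, Atf4 and Ddit3. For each fit, 1 contrast was tested on simulated counts with few changed genes, as many higher as lower. That setting does not bear on the choice of scaling. Of the members, 19 overlap a gene on the other strand and 6 one on the same strand, and Calr and Spcs2 have named pseudogene copies, so their counts are uncertain to that extent.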

Additional observations from a re-analysis of the deposited data

Results flagged for a closer look

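In the 4 DLK+ sums of E17.5, Pdia3 in set 4 stood apart from the others at 1426 CPM, and Atf4 in set 3 at 225.3 CPM. All 41 members were checked in 2 groups of 4 sums, where chance sets 1 value apart in about 1 of 20, and no member stood apart in the Control explants. The change from E14.5 to E17.5 differed between cholangiocytes and DLK+ cells, by edgeR's interaction test, in 15 members. The log2 difference of the changes (cholangiocytes minus DLK+) was -1.54 for P4hb, -1.41 for Manf, -1.11 for Sec61g, -1.06 for Dnajb11, -1.05 for Sec61b, -1.05 for Xbp1, -1.03 for Srpr and -1.0 for Pdia6. It was -0.93 for Hsp90b1, -0.92 for Ssr2, -0.91 for Sec61a1, -0.88 for Spcs2, -0.88 for Dnajc3, -0.84 for Pdia4 and -0.66 for Pdia3. With ERCC library sizes 0 of these passed.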

How the results depend on the processing

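The scaling bears most on the directions, and the shares of all genes given above belong to TMM scaling. With library totals, bulk had 4 members higher and 27 lower, DLK+ cells 5 and 23, the DLK+ steps 1 and 11, cholangiocytes 2 higher on average and 3 over the days, the interaction 1 lower and TPPB 1 lower. With library totals the bulk estimates turned to -0.79 for Calr, -1.03 for Pdia3, -1.40 for Hspa5, -0.0295 for Srpr, -0.21 for Sec62, -1.26 for Ssr3, -0.17 for Spcs1, -0.18 for Sec11c, -0.96 for Sec11a, -1.18 for Atf4 and -0.25 for Ddit3. In DLK+ cells they turned to -0.51 for Calr, -0.58 for Pdia4, -1.08 for Hsp90b1, -1.09 for Ssr1, -0.44 for Spcs1, -0.58 for Spcs2, -1.08 for Spcs3, -0.81 for Atf4, -1.13 for Manf and -0.82 for Hspa5. With ERCC sizes DLK+ cells had 10 higher and 0 lower, the DLK+ steps 0 higher, cholangiocytes over time 0 lower, the interaction 0 and TPPB 1. GC offsets gave 8 lower in bulk, and 13 higher and 16 lower over the bulk steps (26 and 26 without). DESeq2 gave 16 higher and 2 lower over the DLK+ steps and 10 lower with TPPB. Sums of at least 5 cells left 3 lower in cholangiocytes over time and 6 interactions. TPPB had 12 lower with no filter, 5 with the plasma list left out of library sizes and 1 over sets 1 and 2 alone. As a share of reads, the members' E18.5 over E10.5 ratio was 0.529 in bulk and E17.5 over E10.5 0.747 in DLK+ cells. The cause of these differences was not tested.

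Leaving out 1 library or sum gave 15 to 22 higher and 4 to 4 lower in bulk, 17 to 28 higher and 18 to 27 lower over its steps, 36 to 41 over any stage, 20 to 24 higher and 1 to 2 lower in DLK+ cells, and 4 to 9 higher over their steps. It gave 0 to 1 higher and 3 to 7 lower in cholangiocytes over time, 33 to 35 lower on average, 84 to 92 lower over the days, 8 to 15 interactions and 1 to 5 lower with TPPB. For U0126 and for both agents against Control it gave 0 to 1 higher.

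Replicate numbers showed no clear pairing of the libraries, with a median correlation of -0.043 in bulk, but pairing was not excluded. Correlations of same-numbered libraries ran from -0.359 to 0.314 in bulk (9 of 36 pairs over 0.1), from -0.006 to 0.145 in embryo sums (1 of 17) and from -0.162 to 0.055 in explants (0 of 8). A replicate block gave 24 higher and 4 lower in bulk, 33 lower in cholangiocytes on average, 9 interactions and 1 lower with TPPB. The block with GC offsets gave 8 lower in bulk, and 11 higher and 15 lower over the bulk steps.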
